A study of Mus musculus with 4 samples.

Results

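The genes described here encode proteins of heterochromatin and of retroelement silencing, and were chosen by name as known members of 3 complexes and 1 further silencing factor. All 10 of them were found among the 56748 genes of the deposited tables, and all 10 had enough reads to be tested. They were read in E14 cells, a mouse embryonic stem cell line, grown without feeder cells in serum with LIF. The groups compared were WT cells with 2 libraries (WT1 and WT2) and Npac knockout cells with 2 libraries (KO1 and KO2), in which Npac had been targeted by CRISPR/Cas9 and colonies had been picked after puromycin selection. The study's text calls KO1 and KO2 knockout cell lines, so each line gave 1 library, and no source says that the WT libraries came from separate cultures.

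Most mammalian retroelements are kept silent by trimethylation of lysine 9 on histone H3 (H3K9me3). KRAB zinc finger proteins bind retroelement sequences and bring in the corepressor Trim28 (also KAP1), which recruits the H3K9 methyltransferase Setdb1 with its stabilizing partner Atf7ip. HP1 proteins, encoded by Cbx1, Cbx3 and Cbx5, bind the finished mark, and the HUSH complex, made of Tasor, Mphosph8 and Pphln1, spreads it over long and recently inserted elements such as LINE-1. In embryonic stem cells this pathway is known as the main restraint on endogenous retroviruses. The counts cover annotated genes, and the RNA of the retroelements themselves was not analysed here.

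Npac, listed as Glyr1, a reader of H3K36me3 and the knocked-out gene, had 259 and 178 CPM (counts scaled to the TMM-normalized library size) in WT1 and WT2 and 47.9 and 51.3 CPM in KO1 and KO2. The log2 fold change (log2FC, KO against WT) was -2.14 with a standard error (SE) of 0.23 and an adjusted p of 0.00174, where adjusted p-values are from the edgeR test described under the processing, over 18157 genes. The knocked-out gene was thus lower in both libraries labelled KO. Total counts lay between 15850805 and 16965120 reads per library. Of 10 embryonic stem cell markers all 10 were read, with a summed level between 6120 and 7615 CPM in WT cells and between 5137 and 5476 CPM in Npac KO cells, and 1 of them, Zfp42, was down-regulated. Of 10 fibroblast markers 2 had no reads in any library, and their summed level was between 43.5 and 80.7 CPM in WT cells and between 55.5 and 66.3 CPM in Npac KO cells. The summed level of 10 primitive endoderm markers was between 647 and 805 CPM in WT cells and between 589 and 610 CPM in Npac KO cells, and that of 10 neural markers was between 101 and 130 CPM and between 106 and 114 CPM. These sums do not show single genes. By edgeR 1 up and 0 down were called among 5 tested fibroblast markers, 1 up and 2 down among 9 primitive endoderm markers, and 1 up and 1 down among 7 neural markers. Of all genes tested 21.7% were called. DESeq2 called 3 embryonic stem cell markers down. The part of cell state in the results below was not tested, and in bulk RNA fewer cells of a type and less RNA per cell cannot be told apart.

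Of the 10 silencing genes 1 was up-regulated and 0 were down-regulated in Npac KO cells where a call needed a 1.5-fold change and an adjusted p below 0.05. Among all genes tested 11.0% were up-regulated and 10.7% were down-regulated, so the number of calls was near the background. At an unadjusted p under 0.05 the number was 4 genes. That limit is loose, since an unadjusted p of 0.0288 (Mphosph8) went with an adjusted p of 0.092 from edgeR. The share of all genes under it was not taken, so such counts, here and below, are descriptions only. DESeq2 also called 1 up and 0 down. The gene that rose was Atf7ip. The median log2FC of the 10 genes was 0.35, and that of all genes tested was 0.0015. In 6 genes each KO library exceeded each WT library and in 1 gene each lay under them, so the groups did not overlap in 7 of the 10, against 33.2%, 32.5% and 65.7% of all genes tested. Of the WT libraries, WT1 had the higher CPM in 9 of the 10 genes, all but Trim28.

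**Figure D1:**
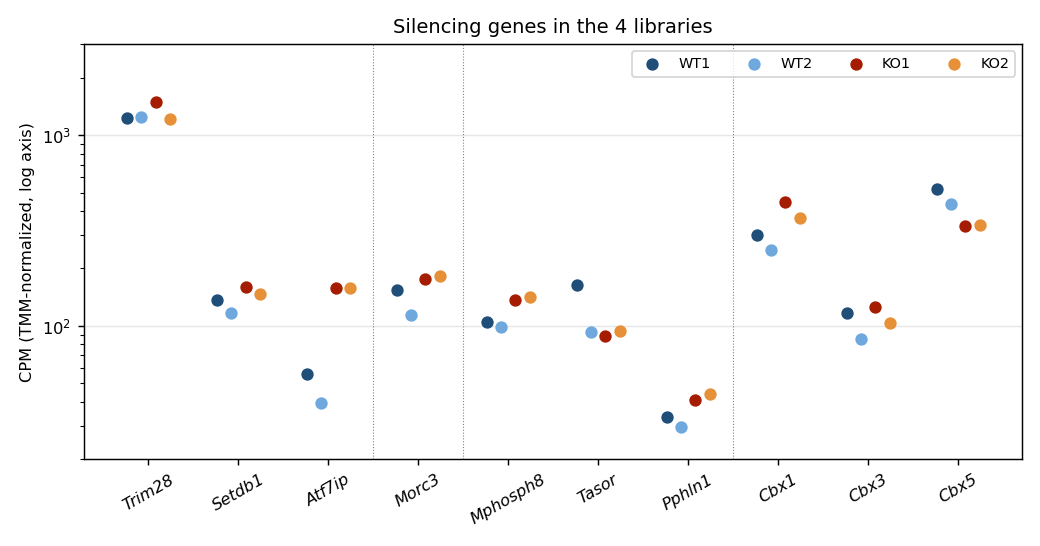
Each point is the CPM of a gene in 1 library, on a log axis, for the 10 silencing genes ordered as KAP1-SETDB1, Morc3, HUSH and HP1 genes, with dotted lines between them. Atf7ip stands at 158 CPM in both KO libraries and at 56.1 and 39.5 CPM in the WT libraries, while the points of the other genes lie closer together.

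The promoters of Atf7ip, the gene that rose, and of Cbx1 and Cbx5, the most abundant HP1 genes, are shown here. They were taken from RefSeq on GRCm38.p6, where all 10 genes had an entry, as the 250 bases before the transcript start, and capitals mark CG dinucleotides. The Atf7ip promoter lies at chr6:136518601-136518850 on the plus strand, that of Cbx1 at chr11:96788885-96789134 on the plus strand, and that of Cbx5, from the more upstream of its 2 start sites, at chr15:103239853-103240102 on the minus strand. The RefSeq start of Atf7ip lies within the gene as GENCODE M21 draws it, downstream of its first annotated base.
Atf7ip: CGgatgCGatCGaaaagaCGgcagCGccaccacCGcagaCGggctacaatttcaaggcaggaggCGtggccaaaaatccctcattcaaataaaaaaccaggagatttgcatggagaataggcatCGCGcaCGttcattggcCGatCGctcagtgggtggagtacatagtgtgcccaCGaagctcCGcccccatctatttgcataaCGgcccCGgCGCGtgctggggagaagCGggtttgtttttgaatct
Cbx1: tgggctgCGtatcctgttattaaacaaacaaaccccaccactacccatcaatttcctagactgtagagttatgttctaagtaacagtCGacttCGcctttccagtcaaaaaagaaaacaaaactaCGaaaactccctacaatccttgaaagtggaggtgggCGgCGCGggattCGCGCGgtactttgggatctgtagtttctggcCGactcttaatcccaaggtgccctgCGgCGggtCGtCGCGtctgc
Cbx5: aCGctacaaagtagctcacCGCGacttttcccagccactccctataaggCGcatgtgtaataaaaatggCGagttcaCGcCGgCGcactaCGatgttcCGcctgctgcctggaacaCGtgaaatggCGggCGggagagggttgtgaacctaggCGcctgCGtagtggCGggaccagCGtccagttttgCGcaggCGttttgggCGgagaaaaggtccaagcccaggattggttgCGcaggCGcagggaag

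Atf7ip had 20 CG dinucleotides in this window, Cbx1 had 16 and Cbx5 had 22, against a median of 6 over the 32851 promoters of the table. As many or fewer were found in 83.7%, 76.5% and 86.7% of those promoters. Over the 10 genes, with the most upstream start site of each, the number ran from 13 in Setdb1 to 46 in Pphln1, so all 10 were richer in CG than the median promoter. On both strands, the letters TGACGTCA of the cyclic AMP response element, which the partner of Atf7ip, the factor ATF7, can bind, occurred in 0 of these promoters and in 1.55% of all. The letters AAGATGGC of the YY1 core occurred in 0 of them and in 1.56% of all, and TATAAA in 0 of them and in 12.4% of all. A CCAAT box (CCAAT) was present in the Atf7ip and Cbx5 promoters and in 33.8% of all, and a GC box (GGGCGG, which itself holds a CG) in all of the 3 printed promoters and in 32.7% of all.

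Trim28 (ENSMUSG00000005566, chr7:12999114-13031035 on GRCm38) encodes the corepressor that links KRAB zinc finger proteins to H3K9 methylation. Its level was 1225 CPM in WT1 and 1237 in WT2, against 1483 in KO1 and 1219 in KO2. The KO libraries lay on either side of the WT libraries, so the groups overlapped. The log2FC was 0.13 (SE 0.20, 95% interval -0.32 to 0.59, adjusted p = 0.659 from edgeR). Without the KO1 library it was -0.023, so its sign rested on that library. Zbtb45, on the opposite strand and partly overlapping it, had at most 420 reads in any library. Per length, Trim28 was the most abundant of the 10 genes, with 294 ± 1.62 FPKM in WT cells and 322 ± 47.7 FPKM in Npac KO cells (SD, n = 2 per group).

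Setdb1 (ENSMUSG00000015697, chr3:95323525-95357202 on GRCm38), the H3K9 methyltransferase recruited by Trim28, had 137 and 118 CPM in WT1 and WT2 and 160 and 147 CPM in KO1 and KO2. Both KO libraries exceeded both WT libraries, by less than the test could separate from the spread between replicates. The log2FC was 0.27 (SE 0.18, 95% interval -0.14 to 0.69, adjusted p = 0.306 from edgeR). Cers2, on the opposite strand and partly overlapping it, had 966 and 759 reads in WT1 and WT2 and 687 and 615 reads in KO1 and KO2; its part in the Setdb1 value was not tested.

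Atf7ip (ENSMUSG00000030213, chr6:136506167-136610862 on GRCm38), which binds Setdb1 and is known to protect it from degradation, had 56.1 CPM in WT1 and 39.5 in WT2, against 158 in KO1 and 158 in KO2. These levels came from 857, 690, 2459 and 2735 reads. The KO libraries lay close together and well above the WT libraries. The mean rose from 47.8 ± 11.8 to 158 ± 0.127 CPM (SD, n = 2 per group), a 3.31-fold difference of means. The log2FC was 1.73 (SE 0.22, 95% interval 1.22 to 2.23, adjusted p = 0.00309 from edgeR). Leaving out any single library gave 1.49 to 1.97. Taken apart, KO1 was 1.73 and KO2 1.72 above the WT mean on the log2 scale, a description of 1 library each.

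Atf7ip lies on chromosome 6, whose genes as a group were slightly lower in the KO libraries, with medians of -0.13 in KO1 and -0.071 in KO2 relative to all genes. With the chromosome medians removed its log2FC was 1.82. The only gene that overlaps it in the tables, the antisense lncRNA Gm44140, had at most 1 read in any library. As neighbours of Atf7ip 10 tested genes were taken, in equal number from each side. Of these 1 was up-regulated and 3 were down-regulated, against 11.0% and 10.7% of all genes tested. The log2FCs of the 10 lay between -7.19 and 1.31. These neighbours were examined after the value of Atf7ip was seen. No processed pseudogene with reads had Atf7ip as its best match in sequence.

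Since Atf7ip and Setdb1 act as partners, their reads per length were set against each other within each library, where the normalization cancels. The ratio of Atf7ip to Setdb1 was 0.136 in WT1 and 0.111 in WT2, against 0.327 in KO1 and 0.355 in KO2. It was 0.123 ± 0.0173 in WT cells against 0.341 ± 0.0198 in Npac KO cells (SD, n = 2 per group). The groups did not overlap. The ratio of Trim28 to Setdb1 was 14.8 and 17.3 in the WT libraries against 15.3 and 13.6 in the KO libraries, which overlapped. The ratios are given as a description, with no test made, and the smallest p of a two-sided exact permutation test on 2 against 2 libraries is 0.333.

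**Figure D2:**
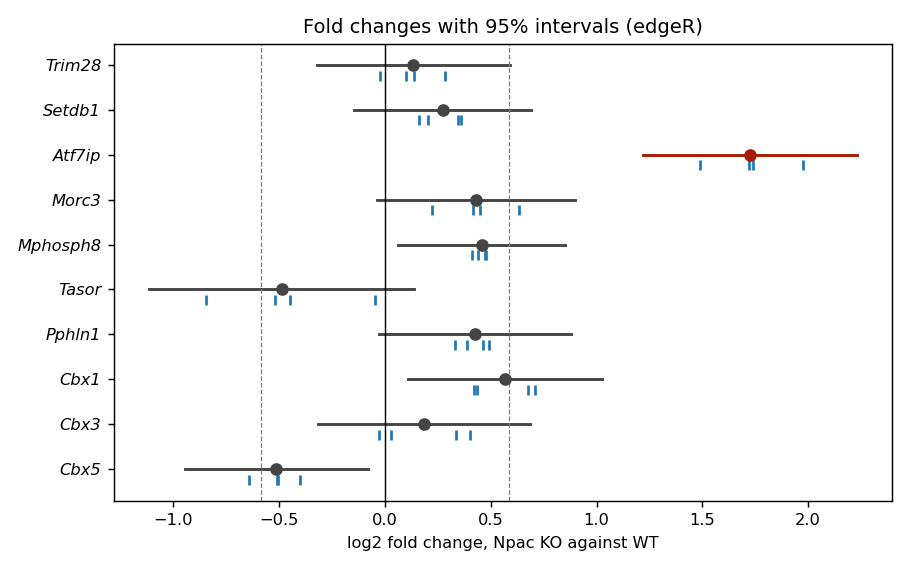
Points are log2FCs of Npac KO against WT cells from edgeR, bars are 95% intervals, blue ticks are the values with each library left out in turn, and dashed lines mark a 1.5-fold change. Atf7ip, in red, is the gene past both thresholds with an interval from 1.22 to 2.23, and the intervals of the other 9 genes end below it.

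Morc3 (ENSMUSG00000039456, chr16:93832121-93876073 on GRCm38), an ATPase that is known to bind histone H3 tails and to take part in the silencing of endogenous retroviruses, had 154 and 114 CPM in WT1 and WT2 and 177 and 183 CPM in KO1 and KO2. Both KO libraries exceeded both WT libraries, but WT1 was nearer to them than to WT2. The log2FC was 0.43 (SE 0.20, adjusted p = 0.163 from edgeR). Without the WT1 library it was 0.63, and without the WT2 library it was 0.22. Without KO1 it was 0.45, and without KO2 it was 0.42.

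None of the HUSH genes passed the test (1 of 3 had an unadjusted p under 0.05, and DESeq2 called 0), and Tasor differed in sign from the other 2 genes. Mphosph8 (ENSMUSG00000079184, chr14:56668248-56697430 on GRCm38), the subunit with the chromodomain that reads H3K9me3, had 104 and 98.4 CPM in WT1 and WT2 and 136 and 142 CPM in KO1 and KO2. The WT libraries lay close together, as did the KO libraries, and the groups did not overlap. Its log2FC was 0.46 (SE 0.17, 95% interval 0.061 to 0.85, adjusted p = 0.092 from edgeR), and leaving out any single library gave 0.41 to 0.48. Mphosph8 overlaps the antisense lncRNA Gm16973, for which 134 and 179 reads were counted in WT1 and WT2 but 76 and 110 in KO1 and KO2, where Mphosph8 had at least 1592 reads in every library.

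Pphln1 (ENSMUSG00000036167, chr15:93398350-93491510 on GRCm38) encodes periphilin, the subunit that binds RNA. It had 33.5 and 29.6 CPM in WT1 and WT2 and 40.9 and 43.8 CPM in KO1 and KO2, with each KO library above each WT library. The log2FC was 0.42 (SE 0.20, adjusted p = 0.156 from edgeR). Tasor (ENSMUSG00000040651, chr14:27428834-27483555 on GRCm38), the scaffold of HUSH, had 164 CPM in WT1 and 92.4 in WT2, against 88.4 in KO1 and 94.1 in KO2. WT1 stood apart, while WT2 and both KO libraries lay together. The log2FC of -0.49 (SE 0.27, adjusted p = 0.227 from edgeR) therefore rested on WT1. Without WT1 it was -0.045, and without WT2 it was -0.85. Without KO1 it was -0.45, and without KO2 it was -0.52. Ccdc66, on the opposite strand and partly overlapping Tasor, had 406 and 479 reads in WT1 and WT2 and 507 and 590 reads in KO1 and KO2; its part was not tested.

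Within each library the ratio of Pphln1 to Mphosph8, per length, was 0.254 and 0.237 in the WT libraries against 0.237 and 0.243 in the KO libraries. These values overlapped, and their means were 0.245 ± 0.0117 and 0.240 ± 0.00459 (SD, n = 2 per group). The ratio of Tasor to Mphosph8 was 0.413 in WT1 and 0.247 in WT2, against 0.171 in KO1 and 0.174 in KO2. Both KO libraries lay under both WT libraries, though the WT libraries differed more from each other than WT2 did from the KO libraries. Summed over the 3 HUSH genes, the levels overlapped, with 301 and 220 CPM in the WT libraries against 266 and 280 CPM in the KO libraries.

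The HP1 genes encode close paralogs that bind H3K9me3 through a chromodomain. None of the 3 passed both thresholds by edgeR, where 2 had an unadjusted p under 0.05, and DESeq2 called 0 of them. Cbx1 (ENSMUSG00000018666, chr11:96789127-96808640 on GRCm38), which encodes HP1 beta, had 300 CPM in WT1 and 250 in WT2, against 445 in KO1 and 369 in KO2. Cbx5 (ENSMUSG00000009575, chr15:103191544-103239816 on GRCm38), which encodes HP1 alpha, had 523 CPM in WT1 and 436 in WT2, against 333 in KO1 and 339 in KO2. In Cbx1 both KO libraries exceeded both WT libraries, and in Cbx5 both were below them. The log2FC values were 0.57 (SE 0.20, adjusted p = 0.0772) for Cbx1 and -0.51 (SE 0.19, adjusted p = 0.0868) for Cbx5, both from edgeR.

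Both HP1 results sat near the threshold, and their size moved with the library left out. Cbx1 had a log2FC of 0.68 without WT1, 0.44 without WT2, 0.42 without KO1 and 0.71 without KO2. Cbx5 had -0.40 without WT1, -0.64 without WT2, -0.51 without KO1 and -0.51 without KO2. These fits leave 1 library in a group, so only the size is given. Cbx1 lies on chromosome 11, where the median log2 difference of all genes, relative to the whole genome, was 0.47 (KO1) and 0.45 (KO2). With the chromosome medians removed the log2FC of Cbx1 was 0.11 (adjusted p = 0.736 from edgeR). Cbx5 lies on chromosome 15, with medians of -0.054 and -0.098, and its log2FC was then -0.44 (adjusted p = 0.139 from edgeR). For each gene 10 tested neighbours were taken, in equal number from each side. Around Cbx1 4 were up-regulated and 0 down-regulated, with a median log2FC of 0.97. Around Cbx5 1 was up-regulated and 4 were down-regulated, with a median log2FC of -0.55. Of all genes tested 11.0% were up-regulated and 10.7% down-regulated. The part of the neighbourhood in the Cbx5 value was not tested. A shift of the whole chromosome and a change of Cbx1 alone cannot be told apart in these data.

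Cbx3 (ENSMUSG00000029836, chr6:51470360-51483704 on GRCm38), which encodes HP1 gamma, had 117 and 85.1 CPM in WT1 and WT2 and 126 and 103 CPM in KO1 and KO2. The groups overlapped, and the log2FC was 0.19 (SE 0.22, 95% interval -0.32 to 0.69, adjusted p = 0.573 from edgeR). Its sign turned without the WT2 library, to -0.029. Only processed pseudogenes with reads were searched, and each was given to its best match in sequence. Cbx3 was the 1 gene of the 10 that received any. It received 8, of which Cbx3-ps6 is 99.8% identical to Cbx3. These 8 held at most 53 reads together in any library, and with them added Cbx3 kept a log2FC of 0.19.

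The HP1 genes were also compared as shares of their sum in reads per length, which does not depend on the scaling of a library. Cbx1 made up 47.5% in WT1 and 48.3% in WT2, against 64.2% in KO1 and 61.2% in KO2. Cbx5 made up 39.3% in WT1 and 40.0% in WT2, against 22.8% in KO1 and 26.6% in KO2. Cbx3 stayed between 11.7% and 13.2% in the 4 libraries. The mean share of Cbx1 was 47.9 ± 0.552% in WT cells against 62.7 ± 2.16% in Npac KO cells, and that of Cbx5 was 39.7 ± 0.472% and 24.7 ± 2.70% (SD, n = 2 per group). The summed level of the 3 genes overlapped between the groups, with 940 and 771 CPM in the WT libraries against 904 and 812 CPM in the KO libraries. The ratio of Cbx5 to Cbx1 was 0.828 in both WT libraries and 0.356 and 0.436 in KO1 and KO2. The genes of chromosome 11, which carries Cbx1, were higher as a group in both KO libraries. Of the 10 tested neighbours of Cbx5, 4 were down-regulated and 1 was up-regulated. The part of either in the shares was not tested.

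**Figure D3:**
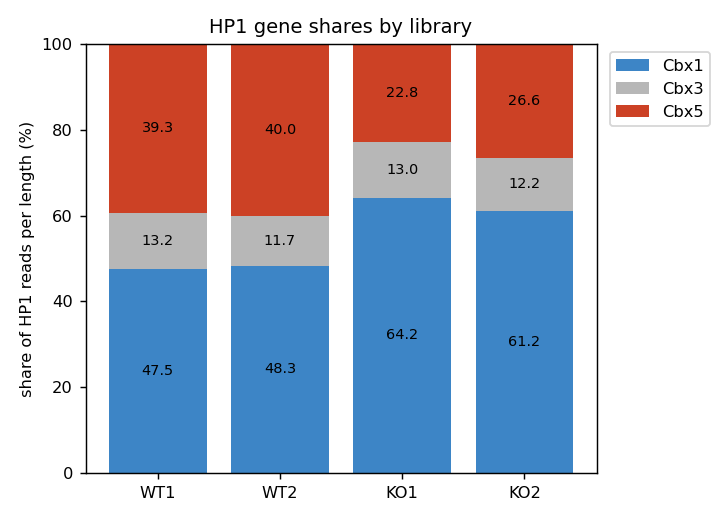
Bars give the shares of Cbx1, Cbx3 and Cbx5 in their summed reads per length for each library, in percent, with the values printed inside. The share of Cbx1 is larger and that of Cbx5 smaller in KO1 and KO2 than in WT1 and WT2, while that of Cbx3 is between 11.7% and 13.2% in all 4.

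Ordered by FPKM in WT cells, Trim28 came first, followed by Cbx1, Cbx5, Mphosph8, Morc3, Setdb1, Cbx3, Tasor, Pphln1 and Atf7ip. The WT libraries of Mphosph8 overlapped with those of Morc3, those of Setdb1 with those of Cbx3, and those of Tasor with those of Pphln1. The other neighbours in the order were apart in both libraries. Atf7ip was last, with 2.29 ± 0.566 FPKM in WT cells, and it stood above Tasor in Npac KO cells, with 7.55 ± 0.083 against 6.62 ± 0.226 FPKM (SD, n = 2 per group). Mphosph8 stood above Cbx5 in Npac KO cells, with 38.4 ± 0.720 and 36.9 ± 0.0853 FPKM. These levels rest on the deposited gene lengths, which are 20726 bases for Atf7ip and 13627 for Tasor and at most 9006 for the other genes, and a length that counts rarely used exons lowers the FPKM.

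Genes that add or read heterochromatin marks beside the 10 genes were taken from 3 lists. Of 10 methyltransferase genes for H3K9 and H4K20 and their partners, 2 were up-regulated and 0 were down-regulated by edgeR, or 2 of 10 against 21.7% of all genes tested. DESeq2 called the list 2 up and 1 down. The genes that rose were Ehmt2, which encodes the H3K9 methyltransferase G9a, and Wiz, a zinc finger partner of G9a. Ehmt2 had 87.2 and 99.4 CPM in the WT libraries against 160 and 142 in the KO libraries, a log2FC of 0.70 (SE 0.18, adjusted p = 0.0324 from edgeR). Wiz had 70.9 and 53.2 CPM in the WT libraries against 127 and 106 in the KO libraries, a log2FC of 0.91 (SE 0.21, adjusted p = 0.0225). In both genes the groups did not overlap. Neither passed without KO1 (adjusted p = 0.318 and 0.185) or without KO2 (adjusted p = 0.153 and 0.0613), and Ehmt2 fell below a 1.5-fold change without WT1, with a log2FC of 0.58. Setdb2, a further H3K9 methyltransferase, named after its values were seen, had 467 and 384 reads in WT1 and WT2 and 225 and 261 reads in KO1 and KO2. Its groups did not overlap, and its log2FC of -0.83 (SE 0.26) had an adjusted p of 0.0535 from edgeR and of 0.0394 from DESeq2. Ehmt1, the partner methyltransferase GLP, had a log2FC of 0.056 (adjusted p = 0.85). Suv39h1 and Suv39h2, which methylate H3K9 at pericentric repeats, had -0.29 (adjusted p = 0.412) and 0.39 (adjusted p = 0.233). The median of the list was 0.0996.

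Of 36 other silencing cofactors 35 were tested, and 0 were up-regulated and 1 was down-regulated by edgeR. That is 2.9% of the list against 21.7% of all genes tested. At an unadjusted p under 0.05 there were 6. DESeq2 called 2 up and 1 down. The gene that fell was Yy1, a zinc finger factor known to help silence murine leukemia virus. It had 194 and 176 CPM in the WT libraries against 115 and 124 in the KO libraries, a log2FC of -0.63 (SE 0.18, adjusted p = 0.04 from edgeR), and the groups did not overlap. It did not pass without WT1 (log2FC -0.58), without KO1 (-0.58) or without KO2 (-0.67), nor with the chromosome medians removed (-0.55, adjusted p = 0.0634). Morc2a, an ATPase that works with HUSH, had a log2FC of 0.018 (adjusted p = 0.954), with 132 and 125 CPM in the WT libraries against 131 and 130 in the KO libraries. Atf7ip2, the paralog of Atf7ip, had 15.1 ± 2.24 CPM in WT cells against 24.1 ± 4.07 CPM in Npac KO cells (SD, n = 2 per group), a log2FC of 0.68 (adjusted p = 0.094). Smchd1, which acts on the inactive X chromosome, had 0.19 (adjusted p = 0.515), Dnmt1, the maintenance DNA methyltransferase, 0.11 (adjusted p = 0.703), and Uhrf1, its partner at hemimethylated DNA, 0.20 (adjusted p = 0.438). The median of the list was 0.11.

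Of 15 KRAB zinc finger genes 14 were tested, and 3 were up-regulated and 1 was down-regulated by edgeR, which is 28.6% of the list against 21.7% of all genes tested. DESeq2 called 3 up and 2 down, the further gene being Zfp445 (log2FC -0.82, adjusted p = 0.0335). Gm15446, a paralog of Zfp932, had 160 and 115 reads in the WT libraries against 6 and 9 in the KO libraries, a log2FC of -4.20 (SE 0.50, adjusted p = 0.00265 from edgeR). Zfp429 had 13 and 6 reads in the WT libraries against 110 and 150 in the KO libraries, a log2FC of 3.72 (SE 0.53, adjusted p = 0.00473). Zfp819, known as a repressor of retroelements in pluripotent cells, had 60 and 40 reads in the WT libraries against 238 and 163 in the KO libraries, with a log2FC of 1.99 (adjusted p = 0.0166). Zfp600 had a log2FC of 1.03 (adjusted p = 0.0485). Gm15446 and Zfp429 have under 10 reads in at least 1 library and passed the filter on low counts only through the group where they are high. Their direction was thus set by the filter, and their calls and the 28.6% that includes them carry little weight. Where every library must have 10 reads they are not tested, which leaves 2 up and 0 down of 12 genes. Over all genes that filter gave 1561 up and 1551 down of 15242. Zfp819 did not pass without KO1 (adjusted p = 0.119), and Zfp600 passed neither without KO1 (0.29) nor without KO2 (0.0767). These genes belong to clusters of similar copies, so the division of reads between copies may be uncertain and was not tested. Zfp809, which recognizes the primer binding site of murine leukemia virus, had a log2FC of 0.010 (adjusted p = 0.984), and Zfp57, which guards imprinted regions, of -0.11 (adjusted p = 0.77). The median of the list was -0.028.

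**Figure D4:**
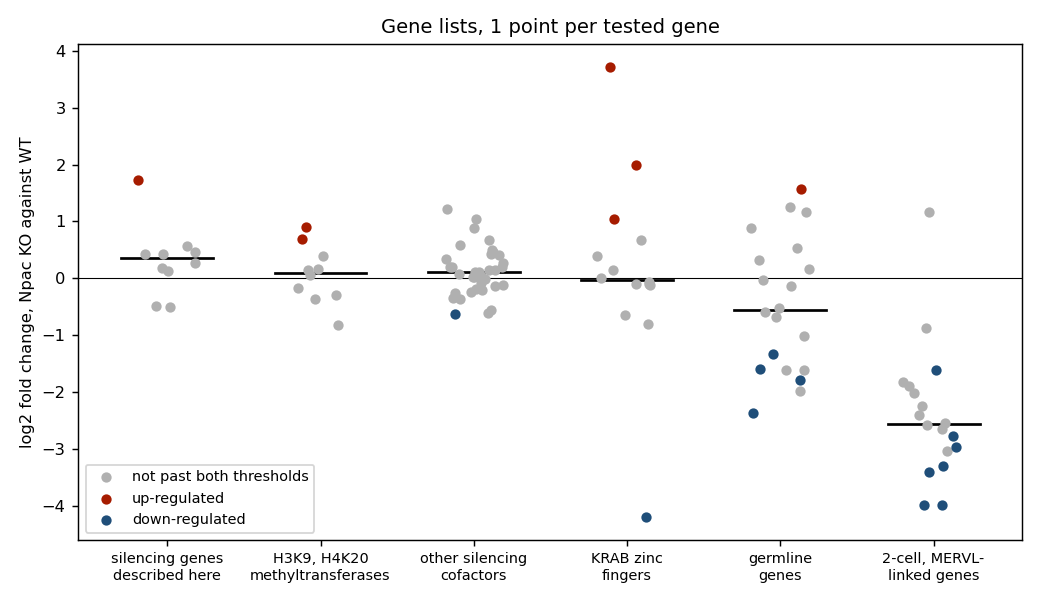
Each point is the log2FC of a tested gene, Npac KO against WT cells, grouped by list, with red for up-regulated, blue for down-regulated and grey for genes not past both thresholds, and black lines for the medians. Tdpoz3 and Tdpoz4, with at most 1 read in KO cells, are drawn at the bound set by 3 reads. Among the 10 silencing genes Atf7ip stands apart at 1.73 and the others lie between -0.51 and 0.57; of the 18 points of the 2-cell and MERVL-linked list, 15 rest on under 10 reads in a KO library.

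Genes known to be held down by this pathway were read on 2 further lists. Genes of the 2-cell state, many of them driven by MERVL retroviral promoters, are commonly raised when Trim28 or Setdb1 is lost. Of 20 such genes found in the tables, a total of 18 were tested. By edgeR 0 were up-regulated and 7 (38.9%) were down-regulated, against 11.0% and 10.7% of all genes tested. This count is a description and carries little weight, since 15 of the 18 genes, 6 of the 7 called among them, had under 10 reads in a KO library, and a gene that passes the filter on low counts only through the WT libraries has to be lower in KO cells. Where every library had to have 10 reads, 3 genes were left, of which 0 were up-regulated and 1 was down-regulated. The number down-regulated was 13 with DESeq2, 3 with limma-trend on log2(FPKM + 1), 1 on log2(FPKM + 0.1) and 0 on log2(FPKM + 1) with no filter, and 0 were up-regulated in each. Over all genes tested the numbers down-regulated in these settings were 2078 of 18157, 1495 of 15008, 1372 of 15008 and 178 of 32685. Zfp352 had 28 and 95 reads in the WT libraries against 4 and 8 in the KO libraries, a log2FC of -3.30 (SE 0.72, adjusted p = 0.0178). Zfp560 had 120 and 225 reads in the WT libraries against 51 and 61 in the KO libraries, a log2FC of -1.61 (adjusted p = 0.0245). Tdpoz4 had 20 and 79 reads in the WT libraries against 0 in the KO libraries. With a floor of 3 reads per library, its KO level lay at least 15.9-fold below the WT mean. That mean averages 1.31 CPM in WT1 and 4.52 CPM in WT2, so the bound against WT1 alone is smaller. Tdpoz3 had 14 and 28 reads in WT1 and WT2 and 0 and 1 in KO1 and KO2. Zfp352, Tdpoz3 and Tdpoz4 thus had under 10 reads in each KO library. They passed the filter on low counts only through the WT libraries, so their direction was set by it and their values carry little weight. The count of down-regulated genes on the list depended on the filter, the tool and the libraries. The number of down-regulated genes was 3 without KO1 and 16 without KO2, and 17 without WT1 and 13 without WT2. Calls over all genes also moved when a library was left out, as given in the last section. In 17 of the 18 genes WT2 was above WT1 and in 17 KO2 was above KO1. Several belong to families of similar copies, such as Zscan4, Usp17l and Tdpoz, so they may not be independent, and the sharing of reads among them was not tested.

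Of 20 germline genes that H3K9 methylation or DNA methylation is known to silence outside the germline, 1 was up-regulated and 4 were down-regulated by edgeR. These are 5 of 20 genes, a share near the 21.7% called among all genes tested. Hormad1, a meiotic chromosome axis gene, had 117 and 164 reads in the WT libraries against 294 and 550 in the KO libraries, a log2FC of 1.57 (adjusted p = 0.0146). Sycp3, of the synaptonemal complex, had 803 and 679 reads in the WT libraries against 163 and 277 in the KO libraries, a log2FC of -1.78 (adjusted p = 0.00642). Taf7l had -2.36 (adjusted p = 0.0252) and Rpl10l, a retrocopy of a ribosomal protein gene, -1.59 (adjusted p = 0.0185). These 4 genes were named for the smallest adjusted p of the list, a choice that favours groups that do not overlap, and theirs did not. In 12 of the 20 genes the WT and KO libraries overlapped. Over all genes tested 65.7% had groups that did not overlap. WT2 was above WT1 in 19 of the 20 genes and KO2 above KO1 in all 20, for example in Dazl, an RNA-binding protein of germ cells, with 372 and 1025 reads in WT1 and WT2 and 466 and 1093 reads in KO1 and KO2; Dazl was named after its values were seen. The number of down-regulated genes was 11 without WT1, 4 without WT2, 3 without KO1 and 8 without KO2, and that of up-regulated genes was 2, 8, 2 and 0.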

How the data were processed

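The members and gene lists were chosen with earlier results of these data known. The authors sequenced paired-end reads and mapped them with HISAT; the submitters' processing notes name HISAT2 2.0.5, featureCounts 1.5.0-p3 and mm10, and the paper's methods name another HISAT release. The strand setting is not given in the sources used here, so reads of a gene and its antisense partner cannot be told apart. Of 52073 gene IDs shared with GENCODE M21 (GRCm38), 1472 had the same start and end, so the coordinates of the deposited tables differ from that annotation and are not printed; positions printed are from GENCODE M21 and RefSeq, both GRCm38. The authors deposited raw counts per gene and FPKM values, which equal those counts divided by gene length and 1 factor per library.

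The test on counts was that of edgeR 4.0.16 under R 4.3.3 (TMM, filterByExpr, quasi-likelihood test over 18157 genes, Benjamini-Hochberg), at the thresholds of the study's methods, a 1.5-fold change and an adjusted p below 0.05. Alternatives were DESeq2 1.42.0, other factors and filters, limma-trend 3.58.1 on log2(FPKM + 1) and log2(FPKM + 0.1), chromosome medians removed from each KO library, processed pseudogenes summed into the gene they match (blastn 2.17.0+, 90% identity over 60% of length), a replicate block and each library left out. With 1 library left in a group, it is assumed to vary like the other group. P-values measure only the spread between these libraries, which may be technical. Named genes are the 10 members, Glyr1, and called genes of the pathway lists with 11 fixed genes. Up to 4 genes each of the 2-cell and germline lists were also named, by smallest adjusted p from edgeR. Floors cover counting error only. Protein sequences were not used here.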

Additional observations from a re-analysis of the deposited data

How the results depend on the processing

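The call of Atf7ip held under 10 of 11 alternatives beside leaving out libraries, with log2 fold changes between 1.39 and 1.82; with limma-trend on log2(FPKM + 1) and no filter on low values its adjusted p was 0.0546 and 0 of the 10 genes and 0 of the other silencing genes were called. Under the other alternatives the 10 genes kept 1 up and 0 down. With a library left out, 1 to 3 of them were up-regulated and 0 to 2 down-regulated; Trim28 then ran from -0.023 to 0.28 and Cbx3 from -0.029 to 0.40 in log2 fold change. For the 3 lists of other silencing genes together, 5 up and 2 down in the main test, the counts were 9 up and 4 down with no filter on low counts and with the replicate block, 4 down with DESeq2, 1 down with at least 10 reads in every library and 1 down with chromosome medians removed, and with a library left out 1 to 14 up and 1 to 8 down. For the main test each of these lists is set beside the share of all genes called in the results above. Over all genes, no filter on low counts gave 2862 up and 2799 down of 32685. DESeq2 gave 2011 up and 2078 down of 18157, and chromosome medians removed gave 1702 up and 1796 down of 18157. At least 10 reads in every library gave 1561 up and 1551 down of 15242. The cause of the shifts in the list counts was not tested. The replicate numbers of WT and KO libraries are shared only as labels; same-numbered libraries had deviations correlated at 0.345, and the block left the calls of the 10 genes at 1 up and 0 down while all genes went from 1999 up and 1946 down to 3128 and 2994. With the block the 2-cell list went from 7 to 17 down, with 0 up in both, and the germline list from 1 up and 4 down to 3 up and 8 down; with no filter on low counts these were 16 down, and 3 up and 8 down. Without a library the 2-cell list had 3 to 17 down. Under limma-trend on log2(FPKM + 1) with no filter, 0 genes of either list were called. Leaving out KO1 or KO2 lowered the calls over all genes to 851 up and 824 down, or 826 and 821, and leaving out WT1 or WT2 raised them to 2773 and 2907, or 3571 and 3384; log2(FPKM + 1) without a filter gave 197 and 178. HP1 shares taken from FPKM are the same by construction, and with a library left out the KO minus WT difference ran from 13.3 to 16.3 percentage points for Cbx1, from -16.8 to -13.0 for Cbx5 and from -0.595 to 0.853 for Cbx3.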
